A study of Mus musculus with 48 samples.

Results

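The NOTCH genes described here are the receptors Notch1, Notch2 and Notch3, the ligands Jag1, Dll1 and Dll3, the receptor-modifying enzyme Lfng, and the targets Hes1, Hey1 and Nrarp. These 10 genes were chosen by name for their roles in 1 pathway, out of 23284 gene symbols measured, and each was found on a row of its own. RNA was sequenced from 48 individually captured mouse cells. All came from an embryonic stem cell line of strain 129P2/OlaHsd that carries a doxycycline-inducible Mesp1, was grown as embryoid bodies, and received doxycycline at 500 ng/ml between day 2.25 and day 3.25. On day 4 the cells were dissociated, propidium iodide-negative (live) cells were sorted, and single cells were loaded on a Fluidigm C1 device. The labels give 1 group and name no separate cultures, and no uninduced cells were analysed here, so values are described across cells and none is tested. A level is given in FPKM (fragments per kilobase of transcript, scaled to the mapped fragments of the cell), and a gene counts as detected in a cell at 1 FPKM or more.

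NOTCH signalling passes between touching cells. A ligand of the Delta or Jagged family on the sending cell binds a NOTCH receptor on its neighbour, the receptor is cut by ADAM proteases and then by gamma-secretase, and the freed intracellular part joins the DNA-binding protein RBPJ and its Mastermind partners to switch on genes such as Hes1, Hey1 and Nrarp. In the early embryo the pathway is best known from the presomitic mesoderm, where it takes part in the oscillating clock that spaces the somites, and it also acts in vascular and cardiac development. Mesp1, the induced gene, encodes a basic helix-loop-helix factor of nascent mesoderm.

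HES and HEY proteins are basic helix-loop-helix repressors, and Hes1 and Hey1 had the highest medians of the 10 genes. Promoter windows of 250 bases before to 50 bases after the start were taken from RefSeq (GRCm38.p6) and matched 8 of the 10 genes, all but Hes1 and Hey1. They were searched on both strands for GTGGGAA, the core letters read by RBPJ, and for CACGTG, an E-box that HES and HEY proteins can bind. GTGGGAA stood in 6.38% of all 32851 windows and, among the members, in that of Lfng alone of the 8. CACGTG stood in 7.15% of all windows and, among the 8, in those of Lfng and Nrarp. These are matches of letters, not measured binding. The stretches around the matches in Nrarp, Lfng and Hes5 are shown, and capitals mark the matched letters. The Nrarp stretch is chr2:25180620-25180685, the Lfng stretch chr5:140607199-140607268 and the Hes5 stretch chr4:154960810-154960876, all on the plus strand. Hes5, another NOTCH target, is no member and is shown for its GTGGGAA at positions -83 to -77 from the start. Its window held another GTGGGAA on the reverse strand, at -226 to -220, outside the stretch shown.
Nrarp: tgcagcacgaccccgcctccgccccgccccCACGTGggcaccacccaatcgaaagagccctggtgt
Lfng: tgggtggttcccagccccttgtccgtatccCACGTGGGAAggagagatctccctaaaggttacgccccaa
Hes5: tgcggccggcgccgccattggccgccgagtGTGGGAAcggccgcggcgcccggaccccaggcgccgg
In the Lfng window the E-box (positions -112 to -107 from the start) and the RBPJ letters (-109 to -103) overlap. Nrarp was detected in 17 cells, and Lfng and Hes5 in 0. Other pathway and somite genes with these letters in their windows differed widely in detection. CACGTG also stood in those of Adam10 (45 cells), Poglut1 (44), Psen2 (7) and Epn1 (5). GTGGGAA also stood in those of Spen (33), Psen2 (7), Hey2 and Msgn1 (5 each), Aph1a (3), Tbx18 (2) and Hes7 (1). A relation of these letters to detection was not tested.

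Detected genes numbered 4788 to 7010 per cell (median 6212). This number was lower at higher cell numbers (Spearman rho = -0.82, n = 48 cells), the number being the one in each cell's label, so values are also given for the 25 cells numbered up to 48 and the 23 above. Of 8 primitive streak markers, 7 were detected in at least 12 of the 48 cells, as were 35.8% of all gene symbols. The same was true of 6 of 9 cardiac and lateral plate markers, 4 of 9 paraxial mesoderm markers, 3 of 8 hemangiogenic markers and 6 of 8 pluripotency markers. Other lists had 2 of 7 endoderm, 1 of 7 neurectoderm and 3 of 6 smooth muscle markers at that share. Within these lists the members differed. The cardiac marker Nkx2-5, the endothelial marker Cdh5, the somite marker Meox2, the endoderm marker Afp and the neural marker Neurog2 were listed at 0 in every cell, and the endothelial marker Pecam1 and the mural marker Cspg4 stayed under 1 FPKM. The cardiac-list genes Gata4 and Gata6 were in 33 cells each and Isl1 in 25, the endoderm-list genes Cer1 in 17 and Foxa2 in 12, the neurectoderm-list gene Otx2 in 24, and the mural-list genes Rgs5 in 29, Pdgfrb in 15 and Des in 13. Mesp1 itself was detected in 30 cells, and whether transcripts of the inducible copy count on its row is not given in the sources used here.

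Of the 10 NOTCH genes, 9 reached 1 FPKM in at least 12 of 48 cells (25%), while 35.8% of all gene symbols were. No cell had fewer than 2 of the 10 or more than 8, and the median was 4. Hes1 was in all 48 cells, Notch2 in 44, Hey1 in 31, Jag1 in 25, Notch1 and Dll3 in 20 each, Nrarp in 17, Notch3 in 13, Dll1 in 12 and Lfng in 0. By median level the order was Hes1, Hey1, Notch2, Jag1, Notch1, Dll3, Notch3 and Nrarp, with Dll1 and Lfng at a median of 0. Only Hes1 stood clear of its neighbour: its interquartile range, 28.7 to 73.2 FPKM, did not meet that of Hey1, 0 to 17.2 FPKM. Every other neighbouring pair in this order had interquartile ranges that overlapped or met at 0.

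**Figure D1:**
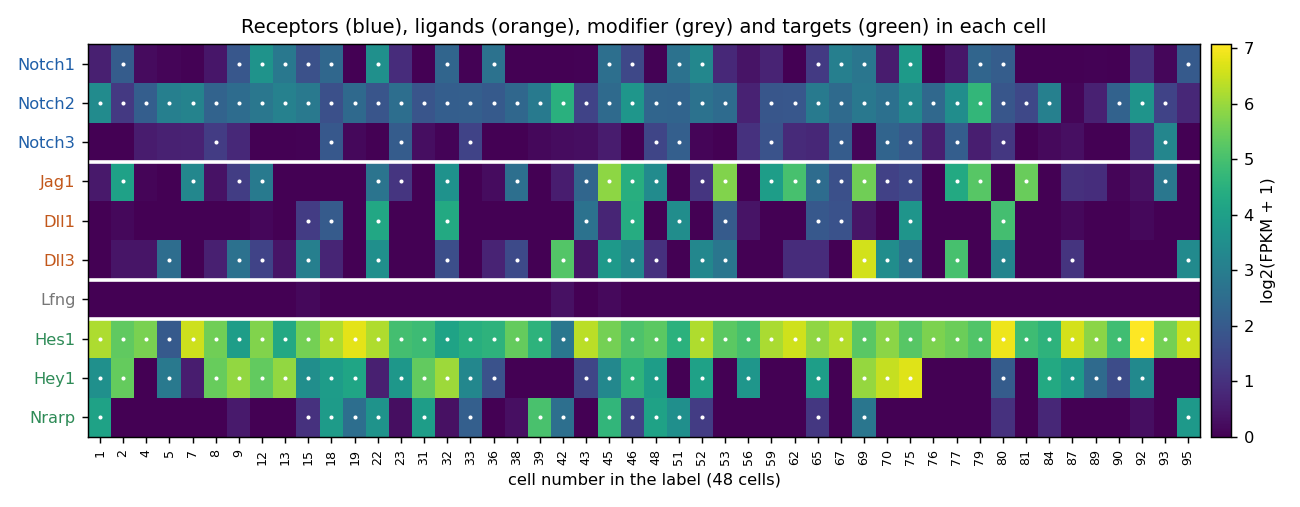
Level of the 10 genes (rows, log2(FPKM + 1) as colour) in each of the 48 cells (columns, in order of the cell number in the label), with a white dot where a gene reached 1 FPKM. Hes1 and Notch2 run through nearly all columns, with 48 and 44 cells, while the other genes are scattered and the Lfng row holds no dot.

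Among the receptors, Notch2 was the broadly detected one. Its levels lay between 0.0651 and 24.6 FPKM (median 4.26 FPKM), and it was detected in 91.7% of cells (exact Clopper-Pearson 95% interval 80.02 to 97.7%; the intervals here cover counting error only). The gene lies at chr3:98013527-98150361 on the plus strand of GRCm38. All 25 cells numbered up to 48 had it, and 19 of the 23 above. The 4 cells under 1 FPKM detected few genes, with a median of 4924 against 6271 in the 44 others, and the part of this difference in the Notch2 values was not tested.

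Notch1, at chr2:26457903-26516663 on the minus strand, spanned 0 to 13.4 FPKM (median 0.596 FPKM). It was detected in 20 cells, or 41.7% (interval 27.6 to 56.8%), 11 of them numbered up to 48 and 9 above. A further 17 cells held a value above 0 but under 1 FPKM, and 11 were listed at 0. In the cells that had it, its median of 4.57 FPKM was close in size to that of Notch2 in its own cells, 4.50 FPKM.

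Notch3, at chr17:32120820-32166852 on the minus strand, was detected in fewer cells than the other 2 receptors at 1 FPKM. It spanned 0 to 8.56 FPKM (median 0.337 FPKM) and was detected in 13 cells, or 27.1% (15.3 to 41.9%). Of its values, 13 lay between 0.5 and 2 FPKM, so its count depends on where the limit is drawn: the highest value under the limit was 0.999 FPKM and the lowest above it 1.21 FPKM. At 0.1 FPKM it was in 64.6% of cells and Notch1 in 62.5%, and at 10 FPKM it was in 0%. Above cell number 48 its median, 0.737 FPKM, was also over the 0.645 FPKM of Notch1. Noncoding transcripts on the opposite strand overlap 21024 bases of Notch3 (Gm17276), 1873 bases of Dll1 (A930024N18Rik), and 1488 and 414 bases of Notch1 (0610009E02Rik and Gm13568), and whether strand was used in counting is not given in the sources used here.

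Counted per cell, 45 cells had at least 1 receptor, 22 had 2 and 5 had all 3. Notch1 and Notch3 were together in 5 cells, and 28 cells had at least 1 of them. The 3 cells with no receptor, numbers 56, 87 and 89, detected a median of 4887 genes.

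Jag1, a Jagged-family ligand that activates the receptor, lies at chr2:137081456-137116644 on the minus strand. It spanned 0 to 57.5 FPKM (median 1.15 FPKM) and was detected in 25 cells, or 52.1% (37.2 to 66.7%). Its levels were uneven, with the 5 highest cells holding 57.3% of its summed FPKM and 14 cells listed at 0. The 12 cells numbered up to 48 and the 13 above that had it were about equally many.

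Dll1, the Delta-family activating ligand at chr17:15367354-15376872 on the minus strand, was in 12 cells, or 25% (13.6 to 39.6%), 6 on each side of number 48. It spanned 0 to 30.3 FPKM and was listed at 0 in 29 cells, and only 2 values lay between 0.5 and 2 FPKM. In the 12 cells that had it the median was 7.74 FPKM. Jag1 and Dll1 were together in 8 cells, Jag1 alone in 17 and Dll1 alone in 4, which makes 29 cells with an activating ligand.

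Dll3, a Delta-like protein that is known to act within the cell that makes it and not to activate receptors on neighbours, lies at chr7:28293553-28302238 on the minus strand. It spanned 0 to 95.6 FPKM (median 0.576 FPKM) and was detected in 20 cells, or 41.7% (27.6 to 56.8%). Cell 69 alone held 35.1% of its summed FPKM, and the next highest cell had 35.5 FPKM.

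Lfng, the Lunatic fringe enzyme that adds a sugar to the receptor's extracellular part and is a known component of the somite clock, lies at chr5:140607320-140615545 on the plus strand. It was listed at 0 in 45 cells and reached at most 0.243 FPKM in the other 3, cells 15, 42 and 45. For 0 of 48 cells the exact upper limit is 7.397%, and the simpler limit of 3 counts gives 6.25%. These values were under the detection limit, so the 3 cells do not count as cells with Lfng. In all 3, Dll3, Nrarp, Notch2 and Hes1 were at 1 FPKM or more. Hes1 was in all 48 cells and Notch2 in 44, and 3 cells are too few to show a relation with Lfng.

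Hes1, at chr16:30064384-30067796 on the plus strand, was the one target in every cell. It spanned 2.98 to 133.8 FPKM (median 44.6 FPKM), and 40 cells lay between 20 and 100 FPKM. Only cells 5 and 42 were under 10 FPKM, at 2.98 and 6.04 FPKM. The median was 39.5 FPKM in the cells numbered up to 48 and 50.3 FPKM above, and the level was weakly and inversely related to the number of detected genes (rho = -0.16, n = 48 cells).

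Hey1, at chr3:8663359-8667256 on the minus strand, was present or absent more sharply. It spanned 0 to 104.9 FPKM (median 8.73 FPKM), was detected in 31 cells, or 64.6% (49.5 to 77.8%), and was listed at 0 in 15. Only 2 cells lay between 0 and 1 FPKM. In the cells that had it the median was 14.5 FPKM. Hey1 was in 19 of 25 cells numbered up to 48 and in 12 of 23 above.

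Nrarp, the NOTCH-regulated ankyrin repeat protein that dampens the signal in turn, lies at chr2:25180758-25183339 on the plus strand. It spanned 0 to 32.3 FPKM (median 0.0987 FPKM) and was in 17 cells, or 35.4% (22.2 to 50.5%). Of these, 12 were among the 25 cells numbered up to 48 and 5 among the 23 above, and its level had a rho of 0.33 with the number of detected genes (Pearson r = 0.26, n = 48 cells), beside 0.24 (r = 0.35) for Notch2. Nearly the whole gene, 2559 bases, is overlapped by the antisense transcript Gm38287, so reads of both could not be told apart if strand was not used.

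Hey1 and Nrarp were together in 12 cells, Hey1 alone in 19, Nrarp alone in 5, and neither in 12. Of the 12 cells with neither, 3 were numbered up to 48 and 9 above. Hes1 had a median of 48.4 FPKM in those 12 cells and 38.96 FPKM in the 36 with at least 1 of the other targets, so it was not lower where Hey1 and Nrarp were missing.

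**Figure D2:**
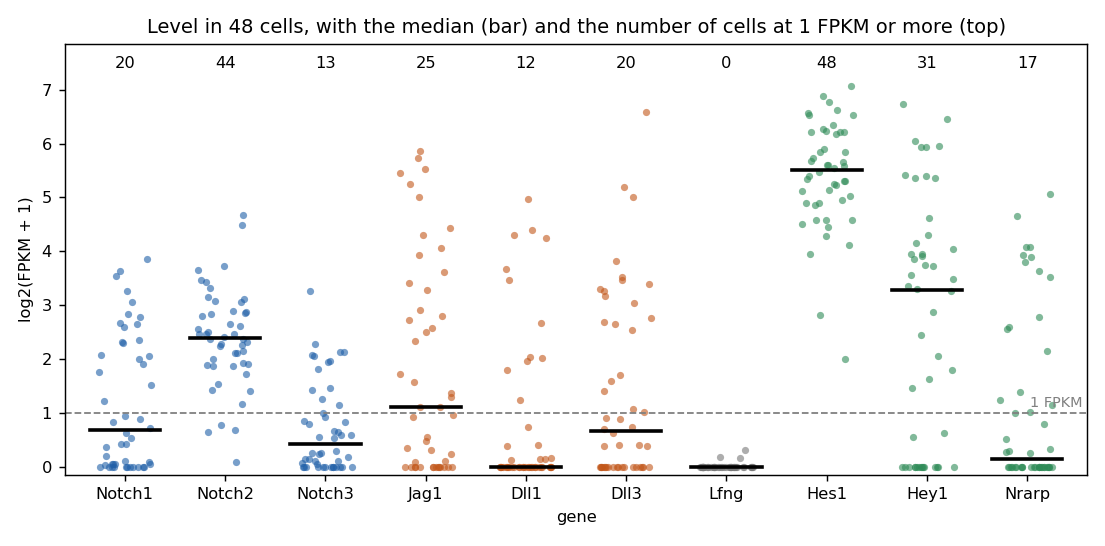
Level of each gene on the log2(FPKM + 1) scale, 1 point per cell (48 cells), with the median as a bar, 1 FPKM as a dashed line and the number of cells at or above it on top. Hes1 points form a single cloud above the line, and the Hey1 points lie mostly at 0 (15 cells) or above the line (31 cells).

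Roles were then compared within cells. At least 1 receptor, at least 1 activating ligand (Jag1 or Dll1) and at least 1 of the selective targets (Hey1 or Nrarp) were in 19 of 48 cells, or 39.6% (25.8 to 54.7%). Dll3 was left out of the ligands for its different role, and Hes1 out of the targets because it was in every cell. A receptor was in 45 of the 48 cells, an activating ligand in 29 and a selective target in 36. Some overlap is therefore fixed by these counts, and whether the roles shared cells beyond it was not tested. Every one of the 29 ligand cells also had a receptor, as nearly all cells did. With Notch2 set aside, 18 cells still held all 3 roles. A ligand without Hey1 or Nrarp was found in 10 cells, a target without a ligand in 17, and neither in 2, cells 4 and 76. Of the 10 cells with a ligand and no selective target, 2 were numbered up to 48 and 8 above.

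Notch1 and Notch3 were detected mostly in ligand cells. Notch1 or Notch3 was in 23 of 29 cells with Jag1 or Dll1 (79.3%, 60.3 to 92.01%) and in 5 of 19 without (26.3%, 9.15 to 51.2%). Notch1 was in 17 of 29 against 3 of 19, Notch3 in 11 of 29 against 2 of 19, and Dll3 in 16 of 29 against 4 of 19. So 3 of the 5 members compared had a share at least 25 points higher in ligand cells, while 6.53% of 6046 genes detected in 12 to 43 cells did. The median number of detected genes was 6288 in cells with a ligand and 6205 without. The gap stood on both sides of number 48, at 11 of 14 against 4 of 11 cells and 12 of 15 against 1 of 8. It was lost when 0.1 FPKM counted as detection, where Notch1 or Notch3 was in 34 of 37 ligand cells and 10 of 11 others.

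Notch1 was detected in most of the Dll1 cells. Of the 12 Dll1 cells, 10 had Notch1 (83.3%, 51.6 to 97.9%), against 10 of the 36 other cells (27.8%, 14.2 to 45.2%). The 10 shared cells are numbers 15, 18, 22, 32, 46, 51, 65, 67, 75 and 80, and Notch1 in them ran from 1.32 FPKM in cell 65 to 13.4 FPKM in cell 75. Both sides of number 48 gave 5 of 6 Dll1 cells with Notch1, and at 0.1 FPKM the counts were 16 of 18 against 14 of 30. Split by Notch1, Dll1 was in 10 of 20 cells against 2 of 28, Dll3 in 12 of 20 against 8 of 28, and Nrarp in 10 of 20 against 7 of 28. These are 3 of 6 members with a share at least 25 points higher in Notch1 cells, where 6.68% of 6047 genes passed the same gap. The Nrarp gap was exactly 25 points, so 1 cell could undo it. By level, Notch1 with Nrarp had a rho of 0.08 over all cells, -0.22 up to number 48 and 0.47 above. Dll3 joined Notch1 and Dll1 in 6 cells.

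Jag1 ran the other way against the selective targets. It was in 15 of 36 cells with Hey1 or Nrarp (41.7%, 25.5 to 59.2%) and in 10 of 12 cells without (83.3%, 51.6 to 97.9%). Jag1 was the 1 of 5 members with a share at least 25 points lower in target cells, as were 4.63% of 6046 genes. The intervals of the shares overlap, and the gap lay mainly above number 48, at 5 of 14 against 8 of 9 cells, with 10 of 22 against 2 of 3 up to it. It shrank to 24 of 38 against 8 of 10 cells at 0.1 FPKM, and to 5 of 27 against 6 of 21 at 10 FPKM. The gap passed 25 points in 3 of 6 other settings. By level over all cells, Jag1 had a rho of -0.06 with Hey1 and -0.21 with Nrarp. With either target alone the Jag1 gap was under 25 points. Jag1 was in 14 of 31 Hey1 cells against 11 of 17 others, and in 7 of 17 Nrarp cells against 18 of 31 others. In the same split by Hey1 or Nrarp, Notch1 went up, with 18 of 36 cells against 2 of 12. It was the 1 of 5 members at least 25 points higher, as were 7.82% of 6046 genes.

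The highest Jag1 cells show both patterns. Of 6 cells over 30 FPKM of Jag1, 4 were listed at 0 for both Hey1 and Nrarp: cell 53 with 52.3 FPKM of Jag1, cell 81 with 42.8, cell 79 with 37.01 and cell 62 with 31.1. The other 2 held Hey1 and Nrarp as well. Cell 45 had 57.5 FPKM of Jag1, 8.87 of Hey1 and 24.2 of Nrarp. Cell 69 had 45.3 FPKM of Jag1, 61.4 of Hey1 and 5.89 of Nrarp, and it was also the highest Dll3 cell. Seen from the ligands, Hey1 or Nrarp was in 19 of 29 ligand cells and 17 of 19 others.

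**Figure D3:**
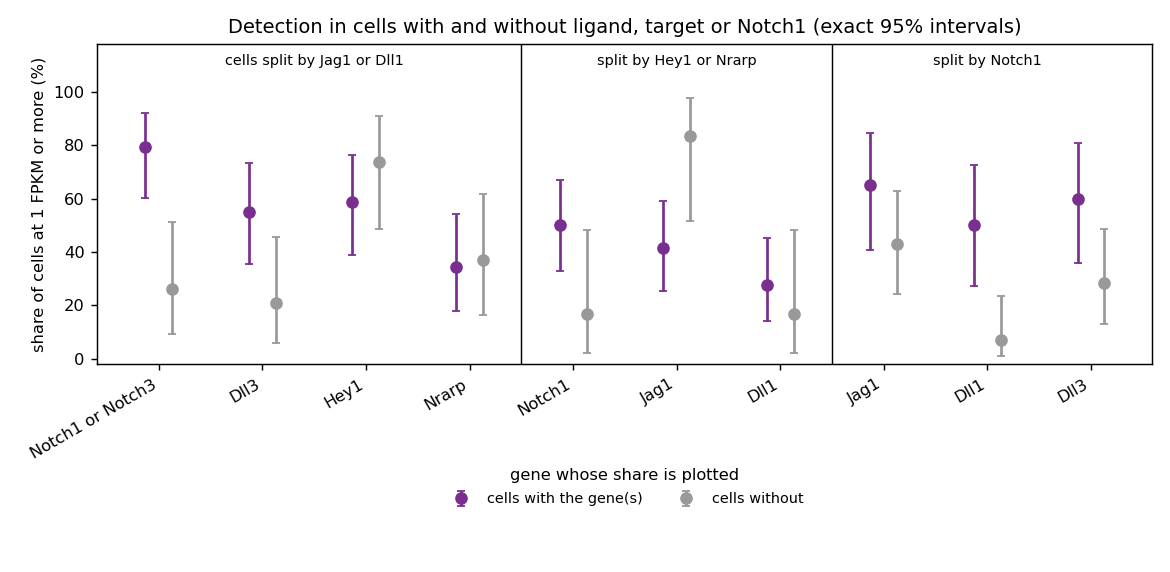
Share of cells at 1 FPKM or more (y axis, %) for the gene named on the x axis, in cells with (purple) and without (grey) the gene or genes named at the top of each panel, with exact Clopper-Pearson 95% intervals. Notch1 or Notch3 stood at 79.3% and 26.3% in the left panel and Dll1 at 50% and 7.14% in the right panel, while Jag1 in the middle panel was lower with the targets than without.

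Levels were compared by rank over the 48 cells for the 36 pairs of the 9 detected members. This is a description, since the labels name no separate cultures and the cells differ in detected genes. Spearman rho was at least 0.3 in 5 pairs, while 2.76% of 55846596 pairs among 10569 genes reached it. The pairs were Notch1 with Dll1 (0.53), Notch1 with Dll3 (0.39), Dll1 with Dll3 (0.33), Notch1 with Hey1 (0.31) and Jag1 with Dll3 (0.30). None was at -0.3 or lower, where 1.58% of gene pairs lay. The lowest was Notch2 with Hes1 at -0.22, and the median over the 36 was 0.093.

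The pairs with Notch1 and a Delta gene were the steadiest. Notch1 with Dll1 lay between 0.47 and 0.54 and Notch1 with Dll3 between 0.34 and 0.41 in the 8 other settings that could move them. Dll1 with Dll3 passed 0.3 in 5 of the 8, Jag1 with Dll3 in 4 and Notch1 with Hey1 in 3. Among the targets rho was -0.14 for Hes1 with Hey1, -0.05 for Hes1 with Nrarp and 0.14 for Hey1 with Nrarp. Among the receptors rho was 0.01 for Notch1 with Notch3 and 0.04 for Notch2 with Notch3. For Notch1 with Notch2 it was 0.16 over all cells, -0.14 up to number 48 and 0.43 above. Hes1 was within 0.19 of 0 with each ligand.

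**Figure D4:**
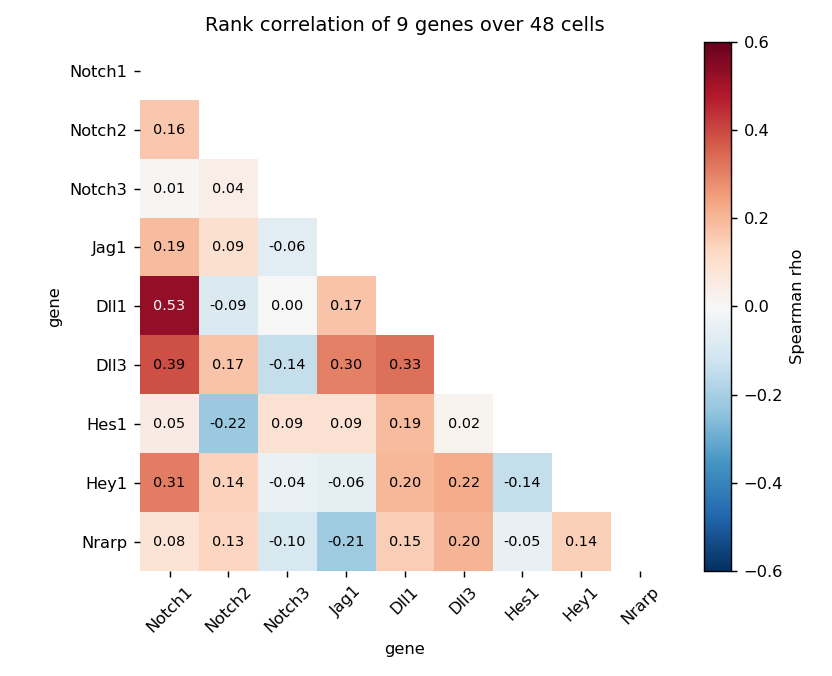
Spearman rho (colour and number) for each pair of 9 genes over 48 cells. The darkest field is Notch1 with Dll1 at 0.53, the Hes1 row stays between -0.22 and 0.19, and Lfng is left out because it was detected in 0 cells.

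The number of NOTCH genes in a cell was compared with that of paraxial mesoderm markers (Tbx6, Msgn1, Meox1, Meox2, Tcf15, Foxc1, Foxc2, Pax3 and Aldh1a2). Across cells, the number of members detected had a rho of 0.59 with the number of paraxial markers detected, and of between -0.08 and 0.21 with the 7 other marker lists. The 17 cells with 3 or more paraxial markers had 4 to 8 members, with a median of 6. The 7 cells with 2 markers had 2 to 7, with a median of 7. The 10 cells with 1 marker had 2 to 6, with a median of 3.5, and the 14 cells with 0 had 2 to 7, with a median of 4, so the count did not go up step by step. Cells with 1 marker had Notch1 in 1 of 10 and Dll1 in 0. Between the ends, Notch1 was in 12 of the 17 cells with 3 or more markers and 3 of the 14 with 0, Dll1 in 8 and 1, Dll3 in 10 and 3, Jag1 in 13 and 6, and Hey1 in 12 and 5. Nrarp, with 7 and 4 cells, and Notch3, with 6 and 4, were closer.

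By level, Notch1 (0.54), Dll1 (0.50), Dll3 (0.41) and Hey1 (0.40) had a rho of at least 0.3 with the paraxial count, 4 of 9 members, where 4.37% of 10561 genes did. Jag1 was under that limit at 0.23, and Hes1 (-0.10), Notch3 (-0.08), Notch2 (0.08) and Nrarp (0.09) were near 0. Foxc1 and Foxc2, forkhead factors of the presomitic mesoderm and somites, were in 18 cells each. Dll3 was in 14 of the Foxc1 cells (rho = 0.50), and Notch1 in 13 of the Foxc2 cells (rho = 0.57). These were the highest values among pairs of members with the 4 paraxial markers found in at least 12 cells. Aldh1a2, in 21 cells, had a rho of 0.09 with Notch1, 0.10 with Dll3, 0.21 with Hey1 and 0.29 with Dll1. Tbx6, in 13 cells, had 0.32 with Notch1 and with Hey1, 0.28 with Dll1 and 0.14 with Dll3. The number of detected genes had a rho of 0.35 with the member count and 0.19 with the paraxial count, and the relation of the counts was 0.57 with detected genes held constant. Over the cells numbered up to 48 it was 0.58, and 0.57 with detected genes held constant. Above 48 it was 0.52, and 0.33 with detected genes held constant, as was that of the pluripotency list (0.33). There the member count had a rho of 0.74 with the number of detected genes. At 0.1 FPKM the relation was 0.46 and at 10 FPKM 0.22, where the neurectoderm list had 0.24.

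**Figure D5:**
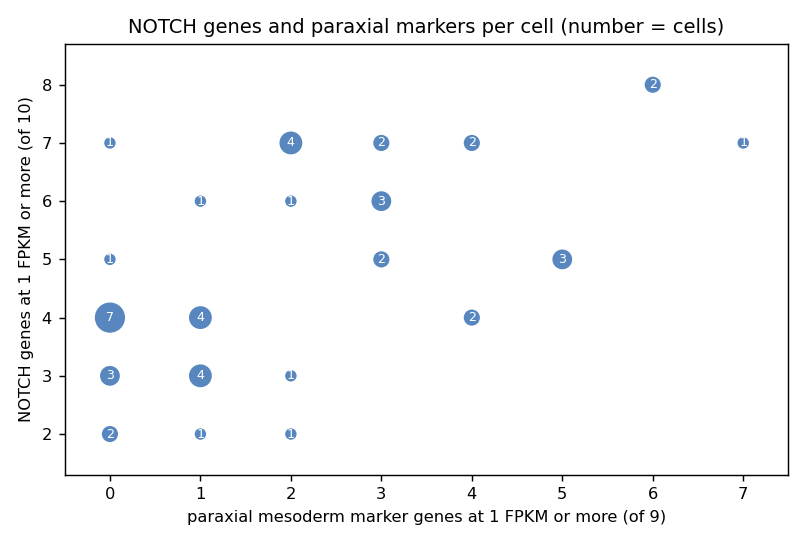
Number of the 10 NOTCH genes detected (y axis) against the number of the 9 paraxial mesoderm markers detected (x axis) per cell, with the number of cells at each point written in it and shown by its area. Cells with 3 or more markers hold at least 4 of the NOTCH genes, and the 2 cells with 8 NOTCH genes hold 6 markers.

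The 8 marker genes used to split the cells were Mesp1, T, Tbx6, Etv2, Kdr, Pdgfra, Hand1 and Aldh1a2. Across them, 7 of 56 member shares were at least 25 points higher in cells with the marker than without, where 6.0% of all genes' shares were, and 1 of 56 was that much lower, where 2.31% were. Cells with Mesp1 more often had Hey1, in 23 of 30 against 8 of 18, and Dll3, in 16 of 30 against 4 of 18, and 5.9% of genes passed that gap with Mesp1. Both gaps were smaller in the cells numbered up to 48 (Hey1 in 13 of 16 against 6 of 9, Dll3 in 8 of 16 against 3 of 9) than above (Hey1 in 10 of 14 against 2 of 9, Dll3 in 8 of 14 against 1 of 9).

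With Kdr, the VEGF receptor of vascular and cardiac progenitors, Hey1 was in 18 of 22 Kdr cells against 13 of 26 others, and 6.04% of genes were higher by that much. Dll3 was in 6 of 22 Kdr cells against 14 of 26 others, and 1.74% of genes were lower by that much. As 1 of 56 shares, the Dll3 value is near the background. It passed the gap in 2 of 6 other settings and turned at 0.1 FPKM, where Dll3 was in 17 of 27 Kdr cells and 12 of 21 others. With Pdgfra, a receptor of paraxial and cardiac mesoderm, Dll3 was in 16 of 31 cells against 4 of 17 (5.75% of genes). With Hand1, a factor of lateral plate and extraembryonic mesoderm, Dll1 was in 10 of 26 against 2 of 22 and Notch1 in 14 of 26 against 6 of 22 (7.99% of genes). With Tbx6, a T-box factor of paraxial mesoderm, Dll1 was in 6 of 13 against 6 of 35, and 10.5% of all genes passed the same gap with Tbx6, whose cells detected a median of 6530 genes against 6198. No member passed the gap with T, Etv2 or Aldh1a2. In the same 6 settings, Notch1 with Hand1 passed the gap in 1, and Dll3 with Pdgfra in 5. Dll1 with Hand1, Dll1 with Tbx6, Hey1 with Kdr, and Hey1 and Dll3 with Mesp1 passed it in 4 each.

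The rest of the pathway was present in part. The counts of genes in at least 12 cells below stand beside 35.8% of all gene symbols. The other receptors and ligands were nearly missing: 0 of 5 (Notch4, Jag2, Dll4, Dlk1 and Dlk2) reached 12 cells, and Dll4, the Delta ligand of arterial endothelium, was under 1 FPKM in every cell. Receptor glycosylation genes reached 12 cells in 1 of 5, which was Poglut1, the O-glucosyltransferase of the receptor's EGF repeats, in 44 cells. Receptor cleavage genes did so in 6 of 10. Psenen, a gamma-secretase subunit, was in all 48 cells (median 88.2 FPKM), and Adam10, the first protease, in 45 with a median of 9.83 FPKM, while the subunit gene Aph1c was under 1 FPKM in every cell. Ligand ubiquitination and endocytosis genes, which the sending cell needs, reached 12 cells in 2 of 7, near the share of all symbols. Neurl3 was under 1 FPKM throughout.

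The nuclear side was fuller, with 7 of 8 genes of the RBPJ complex in at least 12 cells, beside 35.8% of all gene symbols. Rbpj itself was in 39 cells with a median of 10.7 FPKM, the coactivator-linked Snw1 in 48 and the acetyltransferase Kat2a in 39. Of the RBPJ corepressor genes 8 of 9 reached 12 cells, led by the histone deacetylases Hdac1 and Hdac2 in 48 cells each, Ncor1 in 46 and the demethylase gene Kdm5a in 45. Receptor attenuation genes did so in 5 of 8, and Fbxw7, the ubiquitin ligase subunit that marks the cut receptor for destruction, was in 40 cells.

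Most other HES and HEY genes were also sparse, with 1 of 7 in at least 12 cells. Hes2, Hes3 and Hes5 were listed at 0 in all 48 cells, Heyl was under 1 FPKM throughout, and the 1 gene was Hes6, in 19 cells. Of the 14 segmentation clock and somite boundary genes, 7 reached 12 cells, 3 of which are the members Dll1, Dll3 and Nrarp. Among all gene symbols 35.8% reached 12 cells. Mesp1, in 30 cells, is also on that list. Lfng and Ripply1, a repressor at the forming somite boundary, were under 1 FPKM in every cell, and the oscillator gene Hes7 was in 1.

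For each detected member, the 3 genes of most similar rank over the 48 cells were taken among 8335 others detected in at least 12 cells, as a description in which the highest of many values is picked. Notch1 was most like Tpp1 (0.57), Foxc2 (0.57) and Auts2 (0.53), with Dll1 in position 4. Dll1 was most like Mylip (0.59), Lef1 (0.55) and Notch1 (0.53). Dll3 was most like Gas1 (0.55), Asb7 (0.53) and Gli1 (0.52), and Jag1 most like Zfp36l1 (0.56), Spry2 (0.49) and 8430410K20Rik (0.47). Notch2 ranked with Rps2 (0.58), Usp21 (0.55) and Mthfs (0.54), and Notch3 with Xpnpep1 (0.55), Podxl (0.52) and 2810002N01Rik (0.51). Among the targets, Hes1 ranked with Rbm3 (0.49), Hbegf (0.49) and 1600021P15Rik (0.47), Hey1 with Gle1 (0.51), Mepce (0.51) and Sp2 (0.50), and Nrarp with Mtap7d3 (0.65), Urb1 (0.53) and BC024659 (0.51). Dll1 and Notch1 were the one pair of members in which a member stood among the 3 genes of another.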

How the data were processed

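The authors deposited 1 table with 23746 rows and a column per cell. Its values are treated as FPKM: the table names no unit, and per the submitters' processing notes the tools were CASAVA 1.8.2, TopHat 0.7 and Cufflinks 2.2.1.0 with build mm10. Their roles and order, the annotation, the use of strand and any filters are not stated in these notes. Summed FPKM ran from 480821 to 12864440 per cell, and from 414465 to 703476 without 778 symbols of short RNAs. Read counts cannot be had from FPKM, so the depth of a cell is unknown and levels carry no interval.

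Rows of a symbol were summed. Shares carry exact Clopper-Pearson 95% intervals. Rank correlations used genes detected in at least 5 cells, and share gaps used genes in 12 to 43 cells, in both cases without short RNAs. Coordinates came from GENCODE M21. Calculations used Python 3.11.15, pandas 2.3.3, numpy 2.4.6 and scipy 1.17.1, and the counting was tested on simulated data. No cell was removed and no doublet caller was run.

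The members, lists and thresholds were chosen with earlier results of these data known. Besides members, the text names pathway genes in at least 36 cells (up to 4 a list) or under 1 FPKM in every cell, 3 genes of similar rank per member, and 8 marker genes. Notch4, Jag2, Dlk1, Dlk2, Hes6, Hes7, Foxc1 and the cell type markers outside the 8 were named after their values were seen. The gap of 25 points and the comparison with paraxial markers were also chosen then. Settings varied were detection at 0.1 and 10 FPKM, rescaling to 1000000 without short RNAs, duplicate rows, the 7 cells under 5189 detected genes, cell number, correlation type and filter, and the gene sets of each role.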

Additional observations from a re-analysis of the deposited data

How the results depend on the processing

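The count of 9 members in at least 25% of cells became 2 at 10 FPKM and was otherwise between 7 and 9. The 25% was taken of the cells used in each setting, so the limit was 12 cells only where all 48 were used. The share of cells with a receptor, a ligand and a target, 39.6%, became 60.4% at 0.1 FPKM, 6.25% at 10 FPKM and 60.4% with Hes1 counted as a target. It lay between 30.4% and 48.0% in the 6 other settings, among them 48.0% in cells numbered up to 48, 30.4% above, and 46.3% without the 7 few-gene cells. The 5 member pairs at a rho of at least 0.3 became 2 by Pearson correlation of log2(FPKM + 1), 3 of log2(FPKM + 0.1), 2 without the highest cell of each gene, and 4 to 7 otherwise. The 0 pairs at -0.3 or lower became 1 in cells numbered above 48 (Jag1 with Nrarp, -0.34) and 1 by either Pearson correlation (Notch2 with Hes1, -0.30 with a pseudocount of 1). With Tbx6, the Dll1 share turned at 10 FPKM, to 0 of 2 cells against 6 of 46. The cause of these shifts was not tested. Rescaling to 1000000 raised each median that was not 0, while those of Dll1 and Lfng stayed at 0. In rescaled units, which are no longer FPKM, Hes1 stood at 79.1, Hey1 at 14.6, Notch2 at 7.65 and Jag1 at 2.17. Dll3 (1.115) then came before Notch1 (1.06). No paired analysis was possible because the labels give 1 group.

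Unknown depth limits every count of absence: a value under 1 FPKM in 1 cell does not show that the transcript was missing. The 48 cells cannot show how the values vary between cultures.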
